A study of Drosophila melanogaster with 3 samples.

Results

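The genes of the 26S proteasome of Drosophila melanogaster and their paralogs numbered 48 of the 13945 protein-coding genes on the main chromosome arms. They were chosen by symbol, as every gene whose name starts with Prosalpha or Prosbeta, or with Rpn or Rpt and a digit. Of these, 25 encode or resemble subunits of the core particle and 23 subunits of the regulatory particle. A canonical gene, whose symbol ends in the subunit number, stands for each of 32 subunits, and the other 16 are paralogs whose symbols carry an R or a T. Binding at these genes was read from chromatin immunoprecipitation and sequencing (ChIP-seq) of CG3919, a protein with a MADF domain, a kind of DNA-binding domain. The 3 samples, biological replicates of 1 group, were whole prepupae of pooled males and females, of unknown age, from a transgenic line that carries CG3919-eGFP, a green fluorescent protein fused to the C terminus of CG3919. Chromatin was sonicated to 200 to 800 bp and precipitated with an antibody against GFP, and every peak list was made against 1 control file. No animals without the fusion protein were analysed here, so no comparison between conditions was possible. In whole animals, strong occupancy in few cells and weak occupancy in many cannot be told apart.

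The proteasome is the main protease of the cytosol and nucleus, and it degrades proteins that carry ubiquitin chains. Its core particle is a barrel of stacked rings, with alpha subunits at the outer gates and beta subunits, some of them proteolytic, inside. The regulatory particle caps the barrel: Rpt ATPases unfold the substrate, and Rpn subunits form the lid and the scaffold, bind ubiquitin and remove it. Prepupae are in the early phase of metamorphosis, when larval tissues are broken down. In yeast and mammals the subunit genes are expressed in concert, and in flies the transcription factor Cnc can raise the expression of many of them.

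A subunit gene was called bound when the summit of a reproducible peak, the position of highest signal in a region that passed the authors' test of irreproducible discovery rate (IDR), lay within 500 bp of any of its annotated transcription start sites (TSSs). The stretches around 5 summits at 4 of the bound genes are shown. Binding there is described with its values further on, and these summits lie outside exons. They are not all such summits. Those of Prosalpha3 and of the weaker Rpn13 peak also lie outside exons, and both have CGATA and TATCGATA within 100 bp, but their stretches are not shown. All coordinates are on dm6, and the sequences were read from the RefSeq genome of that assembly, up to 100 bp on each side of the summit and cut where an exon begins. Capitals mark the letters CGATA, a core of the site of the insulator protein BEAF-32, and TATAAA, the TATA box, on either strand. At Rpn5 the stretches, on the plus strand, were chr3R:5789103-5789303 for the stronger peak and chr3R:5789385-5789492 for the weaker. At Rpn2 the stretch was chr3R:29153267-29153423 and at Prosalpha4 chrX:16275918-16276060, both on the plus strand, and at Rpn11 it was chr2L:5059921-5060121 on the minus strand, where TTTATA is TATAAA reversed.
Rpn5 stronger peak: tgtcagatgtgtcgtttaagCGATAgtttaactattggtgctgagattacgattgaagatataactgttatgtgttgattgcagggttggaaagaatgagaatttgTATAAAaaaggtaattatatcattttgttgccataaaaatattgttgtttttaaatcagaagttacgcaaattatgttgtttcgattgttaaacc
Rpn5 weaker peak: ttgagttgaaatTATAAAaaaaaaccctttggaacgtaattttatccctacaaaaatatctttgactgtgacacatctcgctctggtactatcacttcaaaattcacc
Rpn2: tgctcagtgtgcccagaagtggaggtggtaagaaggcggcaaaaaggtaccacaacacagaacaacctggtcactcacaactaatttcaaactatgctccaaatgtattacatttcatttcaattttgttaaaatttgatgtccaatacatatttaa
Prosalpha4: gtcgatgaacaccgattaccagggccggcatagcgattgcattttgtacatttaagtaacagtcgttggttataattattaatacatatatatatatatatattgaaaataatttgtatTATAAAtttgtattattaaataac
Rpn11: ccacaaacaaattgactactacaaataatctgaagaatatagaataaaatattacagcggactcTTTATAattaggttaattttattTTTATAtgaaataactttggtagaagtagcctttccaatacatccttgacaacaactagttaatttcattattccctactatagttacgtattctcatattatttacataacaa
All 5 stretches were rich in A and T, with a GC content of 29.9% and 32.4% at Rpn5, 36.9% at Rpn2 and 25.9% at Prosalpha4 and at Rpn11. Rpn2 held neither set of letters, and among these 5 stretches CGATA appeared only in that of the stronger Rpn5 peak. Over all 10 summits at proteasome genes, CGATA lay within 100 bp of 4 (40.0%), beside 32.9% of reproducible peaks at protein-coding start sites. The others with it were those of Prosalpha3, of Rpn3 and of the weaker Rpn13 peak.

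The promoters of proteasome genes often held a sequence that the choice of genes did not use, TATCGATA, the core of the DNA replication-related element (DRE), which the factor DREF recognises at promoters of growth and replication genes. It is shown in capitals within 30 bases of 7 promoters, that of the bound gene Rpn3 and then 6 of unbound genes, each in the direction of the gene. The positions were chr2L:19051582-19051611 (plus strand) at Rpn3, chr2L:10221324-10221353 (plus) at Prosalpha6, chr3L:14999930-14999959 (plus) at Prosbeta2, chr3L:16610444-16610473 (minus) at Prosbeta6, chr3L:16582801-16582830 (plus) at Rpn12, chr3R:22462033-22462062 (minus) at Rpn7 and chr3R:23752819-23752848 (plus) at Rpt5.
Rpn3: tgttatcggagTATCGATAtcgaaaaggct
Prosalpha6: cccgaatccctTATCGATAcccgatacaca
Prosbeta2: ccatgaatataTATCGATAcaatatcgatt
Prosbeta6: gtatgtataccTATCGATAacgtttaagca
Rpn12: ttgttaaaataTATCGATAttaaagcacaa
Rpn7: gcggtataattTATCGATAattttggggtc
Rpt5: atcgctgtcacTATCGATAagcgccggcga
The motif reads the same on both strands and contains CGATA. In the 7 promoters shown, its first base lay between 216 bp upstream of the TSS, at Rpn12, and 3 bp downstream, at Rpn7. In Prosalpha6, Prosbeta2, Prosbeta6 and Rpt5 it began at -16, -10, -44 and -46 bp, and these 4 genes had no reproducible peak. In the bound genes Rpn9, Prosalpha3 and Rpn13 it began at 26, -95 and -217 bp.

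Reproducible peaks lay at 8 of the 48 proteasome genes (16.7%), beside 3217 of all 13945 protein-coding genes (23.1%). The 8 were Prosalpha3 and Prosalpha4 of the core particle and Rpn2, Rpn3, Rpn5, Rpn9, Rpn11 and Rpn13 of the regulatory particle. That gave 2 of 25 core genes (8.0%) and 6 of 23 regulatory genes (26.1%). The regulatory share was close to that of genes at large, and the core share was below it, with 11 paralogs among the core genes and 5 among the regulatory genes. Among canonical genes alone the counts were 2 of 14 core genes (14.3%), 6 of 18 regulatory genes (33.3%) and 8 of 32 in all (25.0%), the last near the background, and among paralogs it was 0 of 16.

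By family, 2 of 7 canonical alpha genes (28.6%), 0 of 7 canonical beta genes, 0 of 6 canonical Rpt genes and 6 of 12 canonical Rpn genes (50%) were bound. Thus no gene of a proteolytic beta subunit, Prosbeta1, Prosbeta2 or Prosbeta5, and no gene of an unfolding ATPase had a reproducible peak. These sets are small, only 23.1% of all protein-coding genes were bound, and the absence was not tested. Within the Rpn genes, 4 of 8 lid genes and 2 of 4 non-ATPase base genes were bound, a split made after the values were seen.

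Each of the 3 replicates was then scored on its own. Per replicate the authors deposited 30000 candidate regions, a mix of peaks and background, ordered here by the authors' signal, so that rank 1 is the strongest, and the strongest 9569 were used, as many as there are reproducible peaks. A candidate is therefore not a call. Peak lists hold no read counts, so the depth behind each value is unknown, and SDs and p-values measure only the spread between the 3 samples. Among all proteasome genes, 9 were reached in replicate 1, 9 in replicate 2 and 11 in replicate 3, which is 18.8%, 18.8% and 22.9% (mean 20.1% ± 2.41, SD, n = 3). Among all protein-coding genes the shares were 21.8% in replicate 1, 25.3% in replicate 2 and 24.6% in replicate 3 (mean 23.9% ± 1.82). The share over all 48 was the lower in each replicate, and that of the 32 canonical genes, at 28.1%, 28.1% and 34.4%, was the higher in each.

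Core genes were reached less than regulatory genes in all 3 replicates. The core counts were 3, 1 and 4 of 25 (12.0%, 4.00% and 16.0%, mean 10.7% ± 6.11), and the regulatory counts 6, 8 and 7 of 23 (26.1%, 34.8% and 30.4%, mean 30.4% ± 4.35). The highest core value lay below the lowest regulatory value. The difference, core minus regulatory, was -14.1, -30.8 and -14.4 percentage points (mean -19.8 ± 9.54), with p = 0.25 in the exact two-sided sign-flip permutation test over 3 replicates. That is the smallest p this design allows, and it was 0.30 after Benjamini-Hochberg adjustment over the 6 comparisons made. Without paralogs, canonical core genes were reached at 21.4%, 7.14% and 28.6% (mean 19.0% ± 10.9), on either side of all genes, and canonical regulatory genes at 33.3%, 44.4% and 38.9% (mean 38.9% ± 5.56). The direction was the same in each replicate, at -11.9, -37.3 and -10.3 points (mean -19.8 ± 15.1, exact sign-flip p = 0.25).

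Canonical Rpn genes were reached most, at 5, 8 and 7 of 12 (41.7%, 66.7% and 58.3%, mean 55.6% ± 12.7). Canonical Rpt genes were reached at 1, 0 and 0 of 6 (mean 5.56% ± 9.62). Between them, alpha genes were reached at 2, 1 and 3 of 7 (mean 28.6% ± 14.3) and beta genes at 1, 0 and 1 of 7 (mean 9.52% ± 8.25). The Rpn values lay above those of all genes in every replicate, and the Rpt and beta values lay below, while the alpha values fell on either side. The alpha, beta and Rpt shares overlapped. The difference between the Rpn and Rpt families was noticed in the data and was not tested. Lid genes were reached at 3, 6 and 5 of 8 (mean 58.3% ± 19.1).

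**Figure D1:**
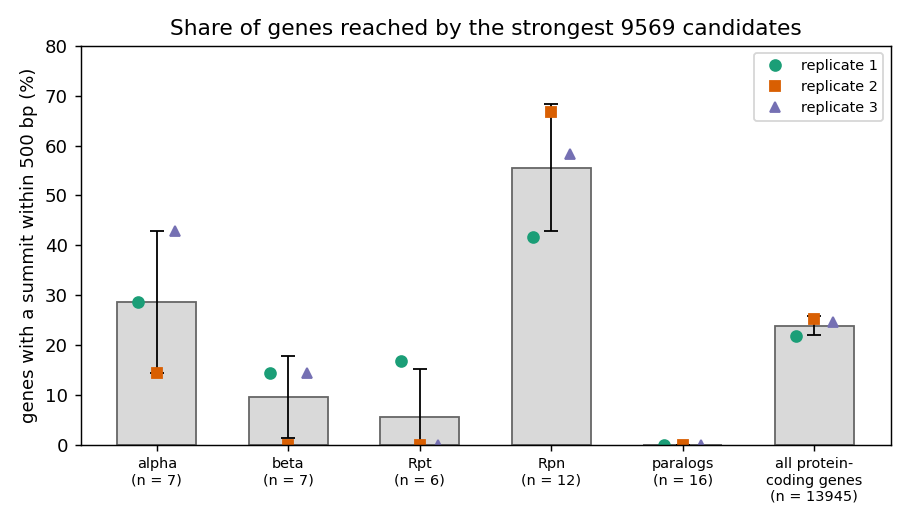
Share of genes (percent, y axis) with the summit of one of the strongest 9569 candidates within 500 bp of a TSS, for canonical genes by family, for all paralogs and for all protein-coding genes. Bars are means over 3 replicates, error bars the SD, and points the replicates; Rpn genes stand highest at a mean of 55.6%, and the paralogs lie at 0 in every replicate.

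Paralogs were reached in no replicate, against 28.1%, 28.1% and 34.4% of canonical genes. The mean difference was 30.2 ± 3.61 points (p = 0.25, the smallest possible, exact sign-flip test, n = 3). Many of these paralogs are known from expression in the testis, and there are 5 such alpha genes, 6 beta genes, 3 Rpt genes and 2 Rpn genes by this naming. Of all protein-coding genes, 51.2% had no candidate of any rank in any replicate or in the list pooled from all 3. Of the 16 paralogs, 14 (87.5%) had none. The exceptions were Prosbeta5R1, with a candidate at rank 20329 in replicate 1, and Rpt4R, with a candidate at rank 27041 in replicate 2. Both ranks are in the weak part of the lists.

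Genes of other large complexes were scored in the same way. Of 88 RpL and RpS genes, which encode cytosolic ribosomal proteins, 61 were bound (69.3%), and 9 of 33 Vha genes of the vacuolar proton pump were bound (27.3%). In the replicates, proteasome genes minus ribosomal protein genes gave -44.9, -49.4 and -53.2 points (mean -49.2 ± 4.17, exact sign-flip p = 0.25). Proteasome genes minus Vha genes gave -11.6, -5.49 and -7.39 points (mean -8.14 ± 3.10, exact sign-flip p = 0.25). Canonical proteasome genes minus Vha genes gave -2.18, 3.88 and 4.07 points (mean 1.93 ± 3.56, exact sign-flip p = 0.50), a difference smaller than its spread. The 2 sides are not alike, as the Vha genes were taken by symbol with no paralogs set aside.

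The strongest peaks at any proteasome gene were those of Rpn5, Rpn3 and Rpn13. Rpn5, FBgn0028690, a scaffold subunit of the lid, had a peak at chr3R:5788996-5789288 that ranked 1361 of 9569, with ranks of 1274, 1518 and 1303 in the replicates (mean 1365 ± 133). The ranks were close, but the candidate summit of replicate 1 lay 65 bp from that of the peak, and the peak was lost when candidates of all 3 replicates had to match it by 50% of both lengths. Its summit lay 290 bp upstream of the Rpn5 TSS and 129 bp upstream of a TSS of Hat1, the gene of a histone acetyltransferase that is read the other way, and it fell in the span of Hat1 but in no exon. A second peak at chr3R:5789293-5789521, rank 2171, had its summit between the start sites, 82 bp upstream of Rpn5 and 27 bp upstream of Hat1. Its ranks were 1274, 3454 and 1801 (mean 2176 ± 1137), and in replicate 1 a candidate overlapped both peaks, so that replicate does not separate them.

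Rpn3, FBgn0261396, another lid subunit, had a narrow peak of 234 bp at chr2L:19051711-19051944 that ranked 1695. Its summit lay 46 bp downstream of the TSS, in the 5′ UTR of Rpn3, and 224 bp upstream of l(2)37Bb on the other strand. The overlapping candidates ranked 1484 in replicate 2 and 1834 in replicate 3 (mean 1659 ± 247, n = 2). In replicate 1 none overlapped it, and the nearest candidate was 5637 bp away at rank 22254. The second-strongest gene of the complex thus rested on replicates 2 and 3.

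Rpn13, FBgn0033886, a ubiquitin receptor of the base, also had a pair of peaks. The stronger, chr2R:13960302-13960473, ranked 2734 with its summit 3 bp downstream of a TSS, in the 5′ UTR. The other, chr2R:13960383-13960818, ranked 4683 with its summit 197 bp upstream of Rpn13 and 74 bp upstream of CtsL1, which encodes a cathepsin-type cysteine protease. The strongest candidate overlapping both ranked 4487, 2108 and 3027 (mean 3207 ± 1200). The candidates closest to the summit of the weaker peak were others, 73, 1 and 0 bp away, at ranks 9832, 6143 and 4144, the first outside the strongest 9569. All 3 replicates therefore placed a candidate among their strongest 9569 at this promoter.

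The remaining regulatory genes had weaker peaks. Rpn11, FBgn0028694, the deubiquitinase of the lid, had a peak at chr2L:5059803-5060238, rank 5395, with replicate ranks of 4829, 7850 and 5828 (mean 6169 ± 1539). Its summit lay 231 bp upstream of the TSS, and no other protein-coding gene had a TSS within 500 bp of it. Rpn9, FBgn0028691, a lid scaffold subunit, had a peak at chr3R:23733095-23733530, rank 5849, with ranks of 9153, 5561 and 7444 (mean 7386 ± 1797). That summit lay 149 bp downstream of the 5′ end of Rpn9, in its 5′ UTR. Rpn2, FBgn0028692, a large scaffold subunit of the base, had a peak at chr3R:29153105-29153540, rank 6477, with ranks of 6922, 6684 and 8739 (mean 7448 ± 1124). Its summit was 201 bp upstream of Rpn2 but 57 bp upstream of Slbp, which encodes the protein that binds histone mRNA stem-loops.

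In the core particle, Prosalpha3, FBgn0261394, a subunit of the alpha ring, had the peak chr2R:20994629-20995064 at rank 4100, with ranks of 3853, 5720 and 4096 (mean 4556 ± 1015). Its summit lay 53 bp upstream of the TSS, and the TSS of dgt3, an augmin subunit gene, lay 466 bp away. Prosalpha4, FBgn0004066, its neighbour in the ring, had the weakest peak of all, chrX:16275742-16276177 at rank 7113. Its ranks were 6035, 14688 and 7845 (mean 9523 ± 4564), and the candidate of replicate 2 was outside the strongest 9569. The summit lay 310 bp from the Prosalpha4 TSS, the farthest inside the window, and 43 bp upstream of a TSS of kat80, which encodes a katanin subunit. No gene lay just outside the window: the nearest unbound gene, Prosbeta6, was 1126 bp from a reproducible summit.

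**Figure D2:**
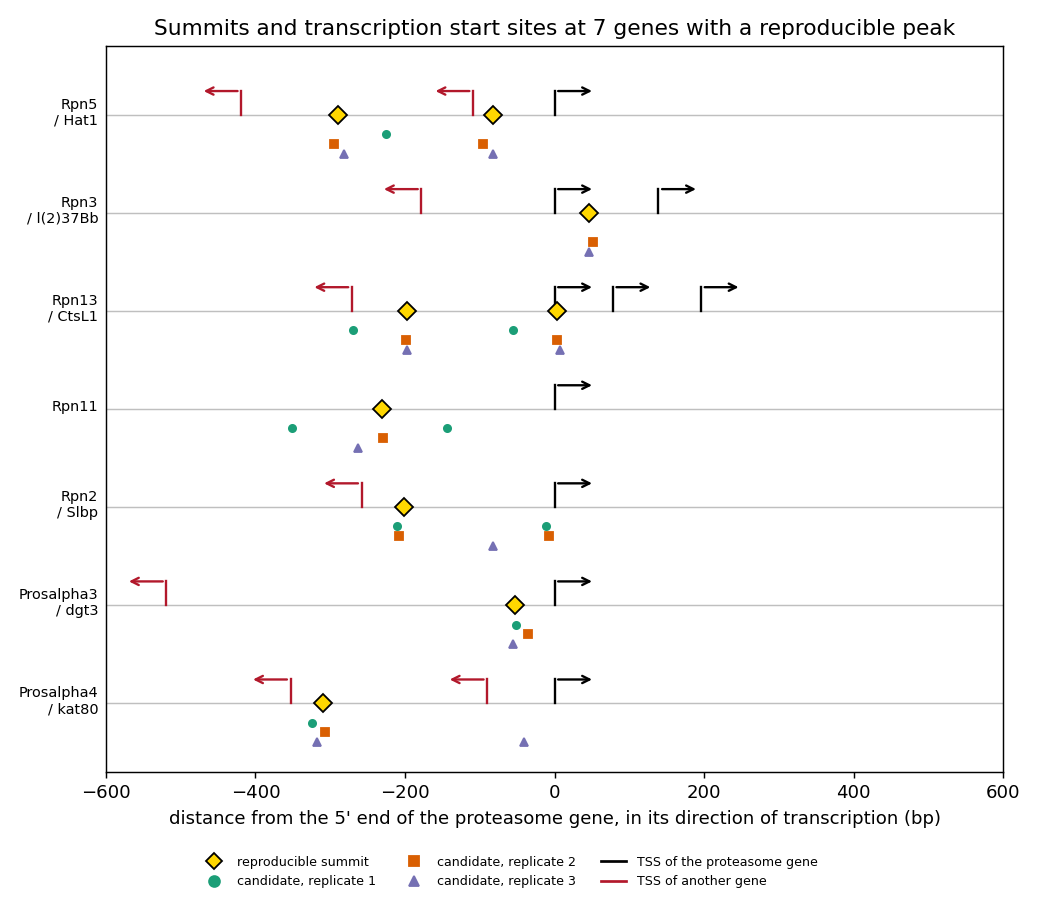
Positions of reproducible summits (yellow diamonds) and of the candidates of each replicate (green circles, orange squares, purple triangles) at 7 of the bound genes; the x axis is the distance in bp from the 5′ end of the proteasome gene in its direction of transcription. Arrows are annotated start sites, black for the proteasome gene and red for a neighbour; at Rpn5 the weaker summit lies between the start sites, and at Rpn3 no candidate of replicate 1 is present.

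Over the 8 bound proteasome genes the best rank ran from 1361 to 7113 with a median of 4748, and over all 3217 bound protein-coding genes the median was 3705. Of the 10 peaks, 6 were among the strongest 4784, near the 1678 of 3106 (54.0%) over all peaks at protein-coding start sites. The peaks at proteasome genes thus lay in the middle of the list in strength, the strongest of them at rank 1361.

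Shared promoters were common. Another gene, coding or non-coding, had a TSS within 500 bp of a TSS of 21 of 32 canonical genes (65.6%) and of 3 of 16 paralogs (18.8%). This was so for 4804 of all 13945 protein-coding genes (34.4%). At every such proteasome gene the neighbour was protein-coding and lay on the opposite strand. Of all genes with such a neighbour 33.6% were bound, and of those without 17.5%. Canonical proteasome genes came close to both values, with 6 of 21 bound (28.6%) where there was a neighbour and 2 of 11 (18.2%), Prosalpha3 and Rpn11, where there was none. A neighbour was about as frequent in both particles, at 9 of 14 canonical core genes (64.3%) and 12 of 18 canonical regulatory genes (66.7%). Of the core genes with a neighbour 1 of 9 was bound (11.1%), and of the regulatory genes 5 of 12 (41.7%).

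Neighbours of bound proteasome genes were themselves bound by the same rule, and their start sites lay 90 bp (kat80), 258 bp (Slbp), 178 bp (l(2)37Bb), 109 bp (Hat1) and 271 bp (CtsL1) away. With fragments of 200 to 800 bp, binding at the proteasome gene and at its neighbour cannot be told apart at these distances. If a peak was given only to the gene with the nearest TSS, 4 proteasome genes remained (8.33%), Prosalpha3, Rpn3, Rpn11 and Rpn13, beside 18.6% of all genes, and the peaks of Prosalpha4, Rpn2 and Rpn5 were among those that went to the neighbour. No neighbour of an unbound proteasome gene was bound, but this was nearly fixed in advance. No unbound proteasome gene had a reproducible summit within 1000 bp, so a start site within 500 bp of its own could have none within 500 bp. Tight pairs were among the unbound ones, such as Rpt5 and RanBP3 at 42 bp, Rpt4 and mldr at 58 bp, Rpt2 and CG13599 at 81 bp and Prosbeta5 and dgo at 94 bp.

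The distances of the 40 unbound genes from binding sites varied widely, and they were not compared with those of other unbound genes. The distance from a TSS to the nearest reproducible summit had a median of 10932 bp and reached 48447 bp, at Prosbeta4R2, and 2 genes, Prosbeta6 and Rpn12, had a summit within 2000 bp. For the 24 unbound canonical genes the median was 7216 bp and the maximum 30722 bp, at Rpt1, and for paralogs the median was 13976 bp. No candidate of any rank lay at 27 of the 40 in any replicate, 8 had one in 1 replicate, 5 in 2 replicates and 0 in all 3. The 27 were 56.2% of the 48, near the 51.2% of all genes with no candidate in any list, and 13 of them were canonical.

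Among the unbound genes were some whose replicates differed, named here because their number is small and chosen after their values were seen. Prosbeta2, which encodes the subunit with trypsin-like activity, had candidates at rank 4080 in replicate 1 and 4002 in replicate 3, 186 bp and 208 bp upstream of its TSS, with none in replicate 2 and none in the pooled list. Rpt5, an ATPase of the base, had a candidate at rank 2292 in replicate 1, 4 bp upstream of its TSS, and no candidate in the others. Rpn8, the inactive partner of Rpn11 in the lid, had ranks of 9390 in replicate 2 and 6594 in replicate 3 upstream of 1 of its 2 start sites, and none in replicate 1 or the pooled list. These are ranks at which most genes had a pooled candidate: of 3302 genes among the strongest candidates of at least 2 replicates, 175 (5.30%) had none, Prosbeta2 and Rpn8 among them.

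Strong candidates at proteasome genes were missing from another replicate in 3 of 6 cases. The 6 genes that were among the strongest 4784 candidates of any replicate were Prosalpha3, Prosbeta2, Rpt5, Rpn3, Rpn5 and Rpn13, and Prosbeta2, Rpt5 and Rpn3 had no candidate in at least 1 other replicate. Over all genes this was so for 413 of 2645 (15.6%). The number of proteasome genes is small, and this difference was not tested.

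The pooled candidate list, made from all 3 replicates together, reached 11 proteasome genes (22.9%) and 35.4% of all genes. The 3 added to the bound genes were Rpn12 at rank 9840, Prosbeta1 at 11754 and Prosalpha5 at 12026. Rpn12, a lid subunit, had ranks of 8050 and 12640 in replicates 2 and 3. Prosbeta1, the subunit with caspase-like activity, had 14999 and 16018, and Prosalpha5 had 15458 and 8738. All 3 lacked a candidate in replicate 1. Rpn12 lay just below the last reproducible peak, of rank 9569, and with it 5 of 8 lid genes had a pooled candidate.

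At canonical genes, candidates appeared in replicate 2 alone at Rpt3 (rank 9878), Prosbeta5 (11658), Rpn7 (14393), Rpt4 (19424) and Prosbeta7 (24635). Candidates of any rank lay at 10 proteasome genes in replicate 1 (20.8%), 18 in replicate 2 (37.5%) and 13 in replicate 3 (27.1%), beside 34.5%, 40.1% and 38.6% of all genes, so replicate 2 was the highest in both. A candidate of any rank was present in all 3 replicates at 7 of the 48 (14.6%), the bound genes other than Rpn3, beside 27.4% of all genes.

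**Figure D3:**
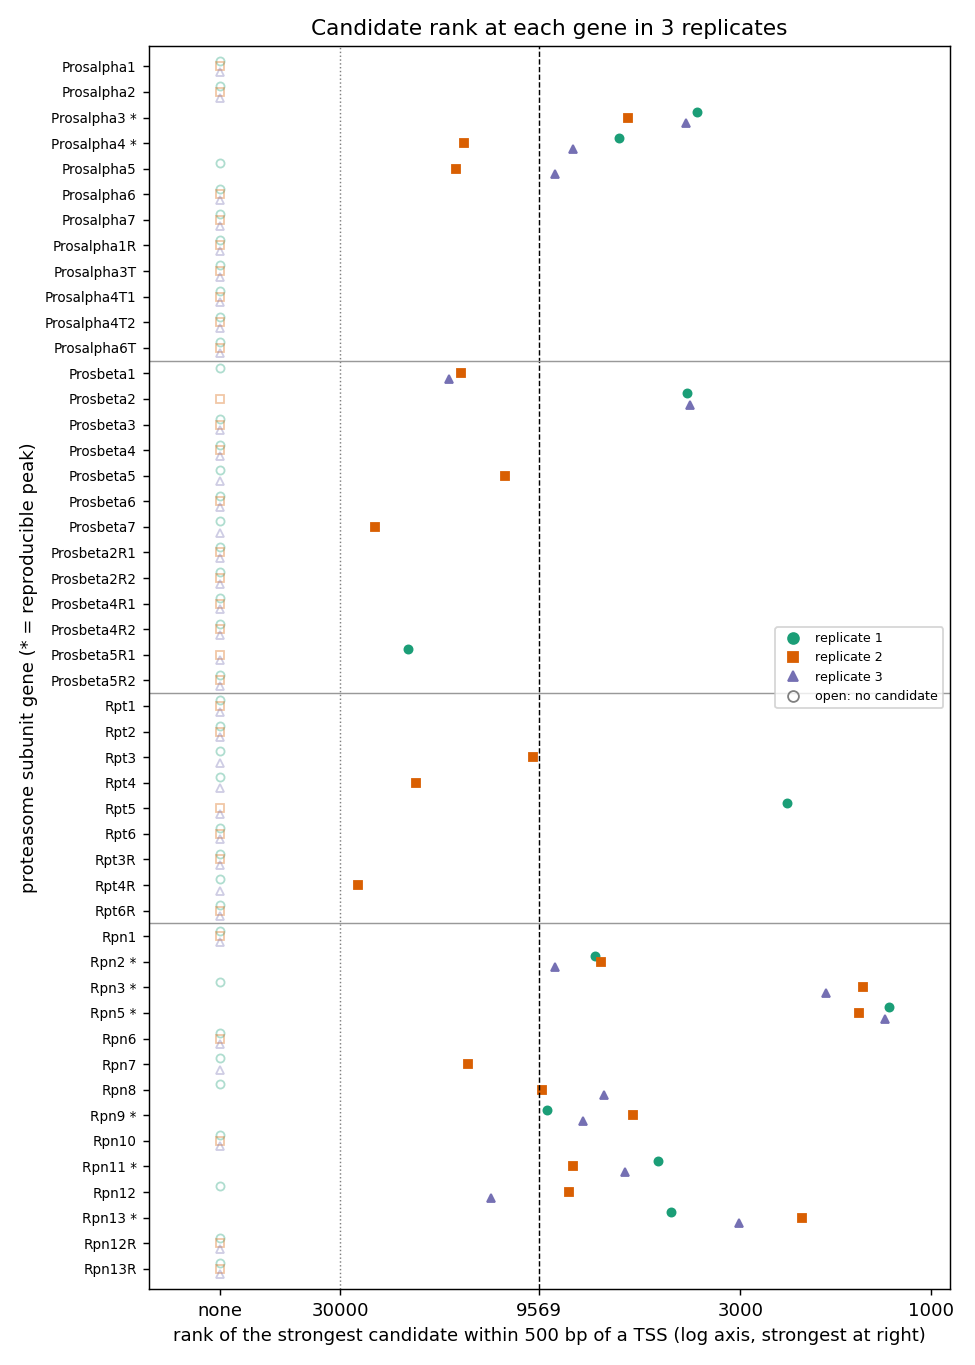
Rank of the strongest candidate with its summit within 500 bp of a TSS in each replicate (x axis, log scale, strongest at the right) for all 48 proteasome genes; open symbols mean no candidate among 30000, the dashed line is rank 9569 and an asterisk marks a reproducible peak. Rpn5, Rpn3 and Rpn13 stand farthest right among the bound genes, and Prosbeta2 and Rpt5 have strong candidates in some replicates and none in the others.

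The DRE core TATCGATA was present in 12 of 32 canonical promoters (37.5%), taken as 250 bp before to 50 bp after the 5′ end, in 0 of 16 paralog promoters and in 9.36% of all promoters. It was present in 4 of 8 bound canonical genes (50%), Prosalpha3, Rpn3, Rpn9 and Rpn13, and in 8 of 24 unbound ones (33.3%), Prosalpha5, Prosalpha6, Prosbeta1, Prosbeta2, Prosbeta6, Rpn7, Rpn12 and Rpt5. Of bound genes in the whole genome 11.1% held it. The motif was thus present in both groups of canonical genes. CGATA, which lies inside it, was in 27 of 32 canonical promoters (84.4%), 8 of 16 paralog promoters (50%) and 47.4% of all promoters. It was in 7 of 8 bound and in 20 of 24 unbound canonical promoters.

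Within 100 bp of the 10 summits, TATCGATA was found at 3, those of Prosalpha3, of Rpn3 and of the weaker Rpn13 peak, beside 4.93% of the 3106 reproducible peaks at protein-coding start sites and 1.85% of all 9569. In the promoter of Prosalpha3 the middle of the motif was 38 bp from the summit, and in that of Rpn13 it was 16 bp. The promoter copies at Rpn9 and Rpn3 were 119 bp and 239 bp from the summit. At Rpn3 the copy within 100 bp of the summit is thus a different one from the promoter copy shown above. TATAAA was found at 6 of the 10 summits, beside 30.1% of peaks at start sites. The GC content of the 10 windows ran from 25.9% to 50.7% with a median of 33.6%, and the median over peaks at start sites was 39.3%.

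The other letters searched are given by their shares. GGTCACAC, the core of the promoter element Motif 1, was in 5 of 32 canonical promoters (15.6%) and 7.70% of all. TGACNNNGC, the antioxidant response element at which Cnc binds with its Maf partner, was in none of the 8 bound promoters, in 5 of 24 unbound canonical ones (20.8%), those of Prosalpha2, Prosbeta3, Rpn1, Rpn7 and Rpt6, and in 8.63% of all promoters. TATAAA was in 13 of 32 canonical promoters (40.6%) and 45.8% of all. GAGAG, read by GAGA factor, was in 3 of 32 canonical promoters (9.38%), 6 of 16 paralog promoters (37.5%) and 29.7% of all. The E-box CACGTG was in no proteasome promoter and in 4.2% of all, and CAGCTG was in those of Rpt3 and Rpt3R and in 17.7% of all. Both strands were searched, and a match describes letters, not a site in use.

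**Figure D4:**
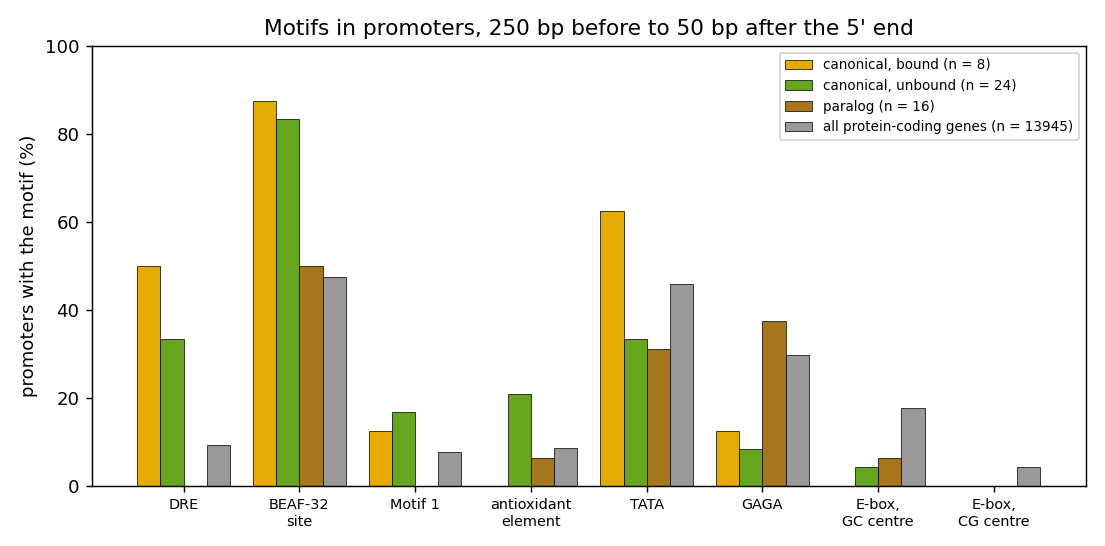
Share of promoters (percent, y axis) that hold each of 8 motifs on either strand, for bound canonical, unbound canonical and paralog proteasome genes and for all 13945 protein-coding genes. The DRE bar is at 50% and 33.3% in bound and unbound canonical genes, 0 in paralogs and 9.36% in all genes.

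Genes that work with the proteasome were looked up from a list of 20 names, of which 19 matched the annotation. Of these 8 were bound (42.1%), beside 23.1% of all genes. Of the assembly factors and modulators, Pomp, the chaperone of core particle assembly, had a peak at rank 1541 with ranks of 1765, 1391 and 1832 in the replicates (mean 1663 ± 238). PI31, which modulates the core particle, had rank 6933 (mean 7584 ± 2812). Pomp thus ranked close to Rpn3, while no gene of a beta subunit, which its yeast and mammalian counterparts help to assemble, had a reproducible peak.

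Of the 3 listed genes of the Cnc and Keap1 pathway, which controls subunit genes under stress, cnc and Keap1 were bound and maf-S was not. The cnc gene, for the activator, had rank 1084 (mean 1140 ± 224), stronger than any proteasome gene, and Keap1, for its inhibitor, had rank 5630 (mean 5583 ± 2192). In the ubiquitin pathway, the polyubiquitin gene Ubi-p63E had rank 4532 (mean 4771 ± 2283), the related Ubi-p5E 5722 (mean 7228 ± 3621), the ubiquitin-activating enzyme gene Uba1 8342 (mean 7261 ± 3190) and eff, a ubiquitin-conjugating enzyme gene, 4032 (mean 4305 ± 1154). The other 11, among them the small lid subunit Sem1, the activator REG, the deubiquitinases Uch-L5 and Usp14, the Cnc partner maf-S and the unfoldase TER94, were not bound. Uch-L5 had a candidate at rank 3136 in replicate 2 alone.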

How the data were processed

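CG3919-eGFP was measured by ChIP-seq in 3 biological replicates of whole prepupae, which form 1 group, so no groups were compared. Per the deposited text listings, the authors made a candidate list from the dm6 alignments of each replicate with 1 control file, a pooled candidate list from all 3 replicates, and a list of reproducible peaks thresholded on the irreproducible discovery rate. No source used here names the aligner, the peak caller or the threshold. The deposited signal of each region is the authors' own value, its scale is not stated, and it served only to rank regions within a list. Summit positions were those of the deposited lists. The lists on dm3 were not used. Read depth is unknown from such lists, so no counting interval is given.

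Start sites came from Ensembl release 115 (BDGP6.54) and sequence from RefSeq's copy of the dm6 assembly, on arms 2L, 2R, 3L, 3R, 4 and X, within whose lengths all regions lay. A gene counted as bound with a summit at most 500 bp from any of its TSSs, so that a peak can count for several genes. Replicates were compared with as many of their strongest candidates as there are reproducible peaks (9569), and ranks at a peak are those of the strongest overlapping candidate (1 bp or more). Differences between gene sets were tested over replicates with an exact sign-flip permutation test, two-sided. Python 3.11.15, numpy 2.4.6, pandas 2.3.3, scipy 1.17.1 and matplotlib 3.10.9 were used. Only the call of genes within 500 bp of a summit was checked on simulated data, with summits planted at known genes.

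The members, the related genes and the motifs were chosen with earlier results of these data known. Every bound proteasome gene was to be named with all its values, with unbound genes that had a candidate in all 3 replicates (there were 0), genes with a TSS within 500 bp of those summits and bound related genes; other names were chosen after their values were seen. A result that needs a further neighbouring gene is not reported here. The list of related genes held 20 names, 18 matched by symbol, 1 by an older name and 1 (Ecm29) not matched. Alternatives changed the window, the peak list, the position, the TSS rule, the overlap and the replicates.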

Additional observations from a re-analysis of the deposited data

How the results depend on the processing

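The 8 bound proteasome genes became 4 when only the strongest 4784 peaks counted, 4 when a peak counted only for the nearest TSS and 5 when a peak had to match candidates of all 3 replicates by 50% of both lengths, and the canonical genes gave the same counts of 4, 4 and 5. Of these, the core genes fell from 2 to 1 in each of the 3 settings, and also with a window of 250 bp and with a match of 1 bp in all 3 replicates, a setting chosen after seeing the data; with the pooled candidate list they were 4. Regulatory genes fell from 6 to 3 with the strongest 4784 peaks and to 3 with the nearest TSS. The share of all protein-coding genes went from 23.1% to 14.4% (strongest 4784 peaks), 18.6% (nearest TSS), 35.4% (pooled) and 13.1% (50% match). With only the 5′ end of each gene span as its TSS, the same 8 proteasome genes (16.7%) were bound, beside 20.5% of all genes. Prosalpha4 was lost with the window of 250 bp, and Prosalpha4, Rpn3 and Rpn5 with the 50% match.

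When peaks had to be matched in the 2 replicates left after leaving out 1, the bound genes numbered 6 to 7, the canonical genes 6 to 7, the core genes 1 to 2, the regulatory genes 5 to 6 and all genes 17.8% to 19.6%. Prosalpha4 was lost without replicate 1, Rpn3 without replicate 2 and both without replicate 3. Paralogs were at 0 in every setting. Core minus regulatory stayed negative in all 9 alternatives, from -22.6 points (without replicate 1) to -7.71 points (4784 candidates per replicate), and from -22.6 to -14.3 points with a replicate left out. Samples could not be paired between groups because there is only 1 group. The differences between gene sets were paired, as both shares came from the same replicate. Read depth is unknown, and 1 control file served all replicates.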

Other observations

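In no pair of proteasome genes less than 50000 bp apart were both genes bound. The pairs are few, and some include a paralog. The 23.1% of all protein-coding genes that were bound is a share of single genes, and no share over pairs was computed, so this absence has no background here. Prosbeta4R1 and Prosbeta4R2 lie 1468 bp apart and Prosalpha1 and Prosalpha1R 1735 bp apart, and none of the 4 was bound. Rpn12 and Prosbeta6, 25378 bp apart, and Prosbeta2 and Rpn12R, 40312 bp apart, were also unbound. Rpn9 was bound, and Rpt5, 19414 bp away on the same arm, had only its replicate 1 candidate.

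Of the related genes that were not bound, some had candidates in the replicates. Npl4, a cofactor of the TER94 unfoldase, had ranks of 7582, 15937 and 8448, although its pooled rank was 26512. Ubqn, a shuttle receptor for ubiquitylated proteins, had ranks of 6060, 29803 and 17129 and a pooled rank of 18990. For Npl4, all 3 replicate ranks were thus stronger than the pooled rank.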
